A study of Mus musculus with 12 samples.

Results

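The libraries compared here, 4 of the 12 in the series, were ATAC-seq libraries of mouse CD4+ T cells in which a super-enhancer of Ets1, that is a dense group of enhancers, had been deleted and which had been driven in culture to the Th1 or to the Th2 helper fate. ATAC-seq marks open chromatin, the stretches of DNA into which the Tn5 transposase can insert sequencing adapters. Th1 knockout cells (strain label C57BL/6J-Ets1-SE-KO, 2 libraries) were naive CD4+ cells of the spleen kept for 6 days with 10 ng/mL IL-12 and 1 ng/mL IL-2. Th2 knockout cells (the same strain, 2 libraries) were kept for 6 days with 50 ng/mL IL-4 and an antibody to interferon gamma. Antibodies to CD3 (bound to the plate) and CD28 were given in both cultures, and the deletion was shared by all 4 libraries, so that the comparison shows how the Th1 and Th2 fates differed in its presence. Th1 and Th2 cells of wild-type C57BL/6J mice (2 libraries each) and naive knockout cells (2 technical replicates of 1 biological sample, by their titles) served as further readings. The sources used here do not give the age of the mice, their number per library or the number of founder lines. Overlapping peaks of the 4 knockout lists on chromosomes 1 to 19 and X gave 74246 regions after merging (median 442 bp wide). A library counted as having a region where at least 1 bp of a peak lay in it. The replicates of a group are separate samples by the labels, and with 2 libraries a group an exact permutation test cannot go below p = 0.333, so presence of a peak is given as counts with no p-value.

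Th1 cells make interferon gamma against intracellular pathogens, under the transcription factor T-bet (gene Tbx21) and STAT4, which IL-12 activates. Th2 cells make IL-4, IL-5 and IL-13 against worms and in allergy, under GATA3 and STAT6, which IL-4 activates. As either fate is taken, the cytokine genes of that fate gain open enhancers and the regulators of the fates restrain each other. ETS1, a founding member of the ETS family of transcription factors, is abundant in T cells and is needed for full interferon gamma production by Th1 cells.

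The labels of the Th2 knockout libraries disagree: the source name of both gives Th2 cells, whereas both titles name Th1 and read as second technical runs of the Th1 knockout samples. They were grouped by the source name, and no comparison of knockout Th1 with knockout Th2 can be made without them. Measured over regions of the 8 polarized lists, the Th2 knockout libraries shared 67.2% to 68.4% of the union of their regions with the Th2 wild-type libraries, 56.2% to 57.2% with the Th1 knockout libraries and 48.9% to 57.6% with the Th1 wild-type libraries. The 2 Th1 knockout libraries shared 64.5% with each other, and the 2 Th2 knockout libraries 68.0%. The Th1 knockout libraries shared 57.6% to 64.8% with the Th1 wild-type libraries and 56.6% to 58.1% with the Th2 wild-type libraries. These 2 ranges overlapped, so the measure did not sort every Th1 knockout library by fate. The share also depends on list length, and the Th1 lists had 34746 to 46006 peaks against 51600 to 56357 in the Th2 lists. The sources used here do not give the coordinates of the deletion. Of all stretches without a peak in the 4 knockout lists, the one with most wild-type peaks lay on chromosome 9 (32897838 to 32940566, GRCm38), was 42.7 kb long and began 140.0 kb beyond Ets1. The Th1 wild-type lists had 6 and 5 peaks there, and the Th2 wild-type lists 8 and 6.

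The promoters that differed between the fates are shown first, since Ifng, the gene of interferon gamma, was among them. A promoter here is the window from 250 bases before to 50 bases after a RefSeq gene start (GRCm38.p6, 32619 windows). Of the windows with a peak in both Th1 knockout libraries, 128 had none in either Th2 knockout library, which is 1.22%. In the opposite direction 219 windows were open in both Th2 knockout libraries alone, which is 2.05% of those open in both. The windows of 4 genes of the Th1 lists were open in Th1 knockout alone: Ifng, Nkg7 (a cytotoxic granule protein), Runx3 (a partner of T-bet at Ifng) and Tbx21. Open in Th2 knockout alone among all list genes were the windows of Il21 (a helper cytokine), Klrb1c (an NK receptor) and Tox2 (a factor of follicular helper cells). A window can differ where the merged region over it does not. The merged region over the Tox2 promoter had a peak in all 4 knockout lists. No merged region within 20 kb of Il21 was present in both Th2 and absent from both Th1 knockout libraries. Printed below are the windows of Ifng, Tbx21 and Nkg7 and, for the other direction, that of Il21 with those of Cd200r3, a receptor of the CD200 receptor family, and C3ar1, the receptor of complement fragment C3a, these last chosen after their values were seen. Capitals mark the letters searched for on both strands. T-box factors such as T-bet were searched with AGGTGTGA. TGTGGTT was searched for RUNX factors. For GATA factors the letters were AGATAA. STAT factors were searched with TTCNNNGAA or the same with 1 more free base. AP-1 factors were searched with TGANTCA. For ETS factors the letters searched were CCGGAAG.
Ifng, chr10:118440796-118441095, plus strand: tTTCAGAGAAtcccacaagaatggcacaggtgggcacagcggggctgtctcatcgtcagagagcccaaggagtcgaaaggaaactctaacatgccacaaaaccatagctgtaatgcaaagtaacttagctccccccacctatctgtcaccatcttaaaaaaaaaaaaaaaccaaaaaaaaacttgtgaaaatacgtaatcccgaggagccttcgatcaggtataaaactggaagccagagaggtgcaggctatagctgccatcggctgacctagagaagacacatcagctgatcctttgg
Tbx21, chr11:97115282-97115581, minus strand: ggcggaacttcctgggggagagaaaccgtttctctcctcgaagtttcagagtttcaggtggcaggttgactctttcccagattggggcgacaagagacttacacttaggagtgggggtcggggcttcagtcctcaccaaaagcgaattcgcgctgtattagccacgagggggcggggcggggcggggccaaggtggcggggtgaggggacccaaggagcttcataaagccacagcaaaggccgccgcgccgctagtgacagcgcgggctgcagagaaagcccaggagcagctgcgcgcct
Nkg7, chr7:43436888-43437187, plus strand: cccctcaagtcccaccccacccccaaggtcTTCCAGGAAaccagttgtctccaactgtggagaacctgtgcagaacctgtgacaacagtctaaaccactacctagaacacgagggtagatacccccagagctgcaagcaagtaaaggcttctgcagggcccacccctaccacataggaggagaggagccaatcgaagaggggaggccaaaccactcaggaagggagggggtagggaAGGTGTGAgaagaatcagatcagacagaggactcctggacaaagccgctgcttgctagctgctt
Il21, chr3:37232587-37232886, minus strand: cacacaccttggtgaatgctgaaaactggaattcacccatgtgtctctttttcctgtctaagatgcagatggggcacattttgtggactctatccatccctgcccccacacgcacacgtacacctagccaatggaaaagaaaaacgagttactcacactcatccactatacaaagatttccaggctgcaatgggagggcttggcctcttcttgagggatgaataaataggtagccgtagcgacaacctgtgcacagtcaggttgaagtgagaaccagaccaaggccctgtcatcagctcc
Cd200r3, chr16:44943428-44943727, plus strand: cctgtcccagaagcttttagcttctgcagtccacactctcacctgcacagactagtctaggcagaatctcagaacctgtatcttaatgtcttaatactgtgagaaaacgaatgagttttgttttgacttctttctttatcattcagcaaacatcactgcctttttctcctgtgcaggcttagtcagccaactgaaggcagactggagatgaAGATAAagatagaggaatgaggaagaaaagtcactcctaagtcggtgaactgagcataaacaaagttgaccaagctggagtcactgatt
C3ar1, chr6:122856108-122856407, minus strand: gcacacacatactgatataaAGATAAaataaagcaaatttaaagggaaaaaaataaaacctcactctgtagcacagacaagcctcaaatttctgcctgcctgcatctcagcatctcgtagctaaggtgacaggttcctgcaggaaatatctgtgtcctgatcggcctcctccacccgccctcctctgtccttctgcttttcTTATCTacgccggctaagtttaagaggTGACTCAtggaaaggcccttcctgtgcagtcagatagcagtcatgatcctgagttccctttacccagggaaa

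The Ifng window held the STAT letters at -249 from the start, and the Nkg7 window held the STAT letters at -220 and the T-box letters at -14. GATA letters stood at -39 in the Cd200r3 window and at -230 and -49 in the C3ar1 window, which also held the AP-1 letters at -22. No searched letters were in the Tbx21 and Il21 windows. Over all windows the T-box letters were in 4 of the 128 windows open in Th1 knockout alone (3.13%), in 2 of the 219 open in Th2 knockout alone (0.913%) and in 1.28% of all 32619. GATA letters were in 4.69% of the windows open in Th1 knockout alone, in 8.22% of those open in Th2 knockout alone, in 5.06% of those open in all 4 knockout libraries and in 11.2% of all windows. The STAT letters with 3 free bases, shown in the Ifng and Nkg7 windows, were in 7.81% and 7.76% of the windows of the Th1 and the Th2 direction and in 8.34% of all windows, so these shares lay near the background. None of these differences in share was tested. The ETS letters were in 4.69% and 4.11% of the windows of the Th1 and the Th2 direction, in 22.2% of the 9922 windows open in all 4 knockout libraries and in 8.92% of all windows. The RUNX letters were in 8.59% and 5.94% against 5.29% of all, and AP-1 letters in 5.47% and 9.13% against 7.85% of all. Over all windows of the Th1 direction, 55.5% and 55.5% had a peak in the Th1 wild-type libraries and 39.8% and 40.6% in the Th2 wild-type libraries. Those of the Th2 direction had a peak in 32.4% and 20.5% in Th1 wild type and in 58.0% and 63.5% in Th2 wild type. In the 2 naive knockout libraries, 51.6% and 57.8% of the windows of the Th1 direction had a peak. For the Th2 direction these shares were 34.2% and 44.7%. Among the printed windows, the Ifng and Nkg7 windows had a peak in both Th1 wild-type libraries and in neither Th2 wild-type library, and the Cd200r3 and C3ar1 windows the reverse. The Tbx21 window had a peak in 1 Th1 wild-type library and in no Th2 wild-type library, the Il21 window in 1 Th1 and both Th2 wild-type libraries, and the Runx3 window in all 4. The Tox2 window had a peak in 1 Th1 wild-type library alone, and the Klrb1c window in none. Both naive knockout libraries had a peak in the Ifng and Nkg7 windows, so these were open before polarization. The Tbx21 window had a peak in 1 naive knockout library, and the Il21 and C3ar1 windows in neither.

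Around Ifng the Th1 knockout libraries had more open regions than the Th2 knockout libraries, some of which were open in both fates. Between -60 and 30 kb of the gene start there were 8 and 10 peaks in Th1 knockout against 4 and 3 in Th2 knockout cells, and 11 and 9 in Th1 wild type against 4 and 3 in Th2 wild type. The region over the promoter (chromosome 10, 118440657 to 118441244) stood at percentiles 61.3 and 62.0 of the Th1 knockout lists, where 100 is the region with the lowest q-value of its list, and was absent from both Th2 knockout lists. A region 33.7 kb before the gene (118406808 to 118407383) stood at percentiles 93.5 and 93.6 in the Th1 knockout lists and had no peak in either Th2 knockout list. Of the 2382 regions found in Th1 knockout alone, this was the one with the highest score rank in the weaker of the 2 lists, an upstream region outside the 20 kb window used for genes below. It had a peak in both Th1 wild-type libraries, in neither Th2 wild-type library and in both naive knockout libraries. A peak that began 17.6 kb after the gene start was in all 4 knockout lists, at percentiles 42.8 and 77.3 in Th1 knockout against 91.5 and 69.2 in Th2 knockout cells.

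**Figure D1:**
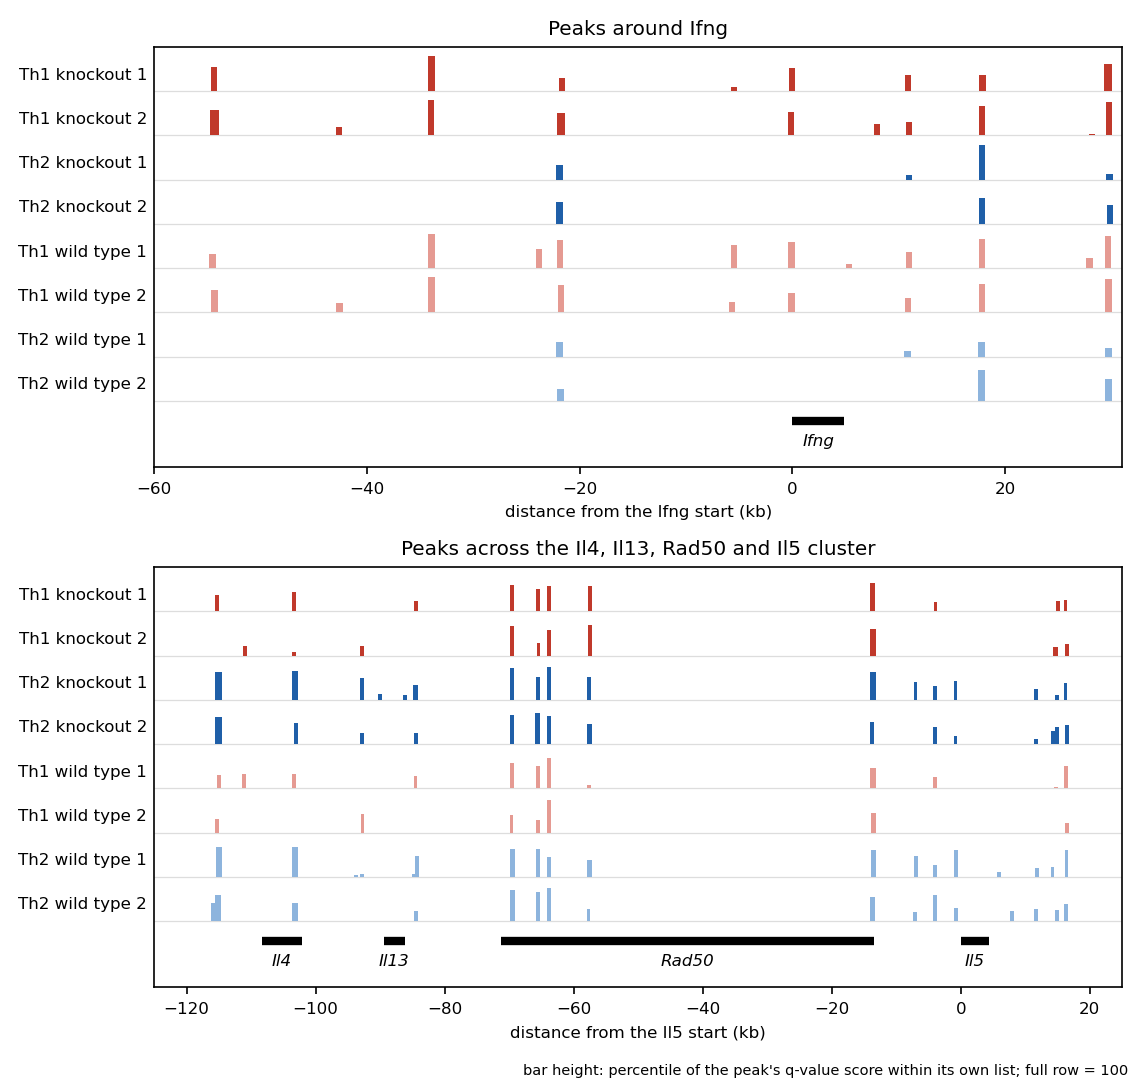
Peaks by distance in kb from the Ifng start (top) and the Il5 start (bottom) in the 8 polarized libraries, 1 row a library, with gene bodies in black. Bar height is the percentile of the peak within its own list; near Ifng the Th1 rows hold 8 to 11 peaks and the Th2 rows 3 or 4, in knockout and wild type alike.

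Regions are counted as Th1-only where both Th1 knockout and neither Th2 knockout library had a peak, and as Th2-only in the reverse case. Over the genome 2382 of 34593 regions with a peak in both Th1 knockout libraries were Th1-only, a background of 6.89%, and 7034 of 43007 with a peak in both Th2 knockout libraries were Th2-only, a background of 16.4%. The Th2 knockout lists were longer (below), and with each list cut to its strongest peaks at the length of the shortest the counts were 3689 Th1-only and 4320 Th2-only regions. At equal list lengths only counts are given, without shares. Those counts cannot be set against the backgrounds of 6.89% and 16.4%, which hold for the full lists. Regions were assigned to a gene when they touched its body or the 20 kb beside either end, so that neighbours such as Il4, Il13 and Rad50, or Ccl3 and Ccl4, share regions, and a list counts each region one time. Among the 19 Th1 effector genes (cytokines, chemokines and receptors of Th1 cells) 9 of 67 regions were Th1-only (13.4%) and 3 of 60 were Th2-only (5%), and at equal list lengths the counts were 15 and 3. Cxcr3, the chemokine receptor that guides Th1 cells to inflamed tissue, had 2 and 2 regions in Th1 knockout against 0 and 1 in Th2 knockout cells, and its Th1-only region (chromosome X, 101729987 to 101730363) stood at percentiles 35.9 and 11.6. Il18rap, a chain of the IL-18 receptor, had 2 Th1-only regions and 1 Th2-only region. Neither of these Th1-only regions had a peak in any wild-type library. The Th2-only region had one in both Th2 wild-type libraries and in neither Th1 wild-type library. Both chains of the interferon gamma receptor (Ifngr1 and Ifngr2), Il18r1 and Nkg7 had 1 Th1-only region each, whereas Tnf, Lta, Fasl and the chemokine genes Ccl3, Ccl4 and Ccl5 had none of either kind.

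The 11 genes of Th1 transcription factors had 8 Th1-only regions of 44 (18.2%) and 7 Th2-only regions of 42 (16.7%), and 4 of the second kind lay at Zeb2. The order of these counts turned to 5 against 6 with a stricter q-value threshold and to 10 against 13 and 9 against 12 without the first or the second Th2 knockout library. Runx3 had 3 Th1-only regions, with 6 and 6 regions in Th1 knockout against 3 and 3 in Th2 knockout cells. In the wild type Runx3 had 6 and 4 regions in Th1 against 3 and 5 in Th2 cells. None of its 3 Th1-only regions had the same call in the wild type. Its promoter region (chromosome 4, 135152249 to 135152610) stood at percentiles 19.4 and 33.8 of the Th1 knockout lists. Stat4, the factor that IL-12 activates, had 2 Th1-only regions and 1 Th2-only region, all inside the gene. Tbx21 had its promoter region as the only Th1-only region (chromosome 11, 97115115 to 97115574), which stood low in the lists at percentiles 13.8 and 11.4. Eomes, the close relative of T-bet, and Bhlhe40, a factor of cytokine production, had 1 Th1-only region each. Zeb2, a repressor that acts with T-bet in killer T cells, went the other way with 4 Th2-only regions, the highest at percentiles 95.6 and 86.8 of the Th2 knockout lists (chromosome 2, 44978160 to 44978786). That region, beyond the end of the gene, had peaks in 1 Th1 wild-type and both Th2 wild-type libraries. The Th2-only regions that start at 44963451 and 44969335 had peaks in all 4 wild-type libraries. The one that starts at 45103048 had a peak in 1 Th1 wild-type library alone. In the wild type Zeb2 had 10 and 7 regions in Th1 against 9 and 9 in Th2 cells. Of the 6 Zeb2 regions open in all 4 knockout lists, however, 4 ranked higher in both Th1 knockout libraries.

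The Th2 genes had no Th1-only region at any of 9 cytokine genes or 9 factor genes, and Th2-only regions at 5 of the cytokine and 6 of the factor genes. Of all 17317 protein-coding genes with a region, 2100 had a Th1-only and 5406 a Th2-only region. The follicular helper and red cell lists held no Th1-only region either. At equal list lengths the cytokine genes had 1 Th1-only and 5 Th2-only regions, and the factor genes 3 and 7. In the full lists 7 of 31 regions of the cytokine genes were Th2-only (22.6%) and 0 of 18 were Th1-only. At the factor genes 7 of 46 were Th2-only (15.2%), close to the background, and 0 of 32 were Th1-only. Across the cytokine cluster on chromosome 11, from 20 kb beside Il4 to 20 kb beside Il5, the Th1 knockout libraries had 12 and 10 regions and the Th2 knockout libraries 18 and 15, of 19 in all. The Th1 wild-type libraries had 12 and 7 of these and the Th2 wild-type libraries 16 and 15. Il5, the eosinophil growth factor, had 2 Th2-only regions, 1 of them centred at -0.804 kb from its start (53719769 to 53720212) at percentiles 50.8 and 20.3. Both had a peak in the 2 Th2 wild-type libraries and in neither Th1 wild-type library. Il4 and Il13 themselves had no Th2-only region, because the regions beside them had a peak in at least 1 Th1 knockout library or lacked one in a Th2 knockout library. At Il4 the counts were 4 and 3 regions in Th1 knockout against 7 and 5 in Th2 knockout cells, and 8 regions of the cluster were in all 4 knockout lists, among them every region that lay inside Rad50, which holds the locus control region of the cluster.

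Il10, which encodes a cytokine that dampens inflammation, had 3 and 3 regions in Th1 knockout against 6 and 7 in Th2 knockout cells. Its stronger Th2-only region (chromosome 1, 131029132 to 131029785) stood at percentiles 84.6 and 79.5 and had the same pattern in the wild type. Areg, which encodes the tissue repair factor amphiregulin, had 1 and 1 regions in Th1 knockout against 3 and 3 in Th2 knockout cells. Gata3, the master regulator of Th2 cells, had a single Th2-only region inside the gene (chromosome 2, 9860828 to 9861245) at percentiles 41.2 and 41.6, with 5 and 4 regions in Th1 knockout against 5 and 6 in Th2 knockout cells. Epas1 (a hypoxia factor) had 2 Th2-only regions, and Stat6, Pparg, Nfil3 and Irf4 had 1 each. Irf4, which is needed for Th2 differentiation, had 5 and 6 regions in Th1 knockout against 12 and 9 in Th2 knockout cells. Among the 10 receptor and effector genes of Th2 cells 3 of 41 regions were Th1-only (7.32%) and 10 of 55 were Th2-only (18.2%), with 3 Th2-only regions at Il1rl1, the receptor of IL-33, and 2 each at Ccr4 and Cd200r1. Il4ra, the IL-4 receptor chain, had none of either kind.

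**Figure D2:**
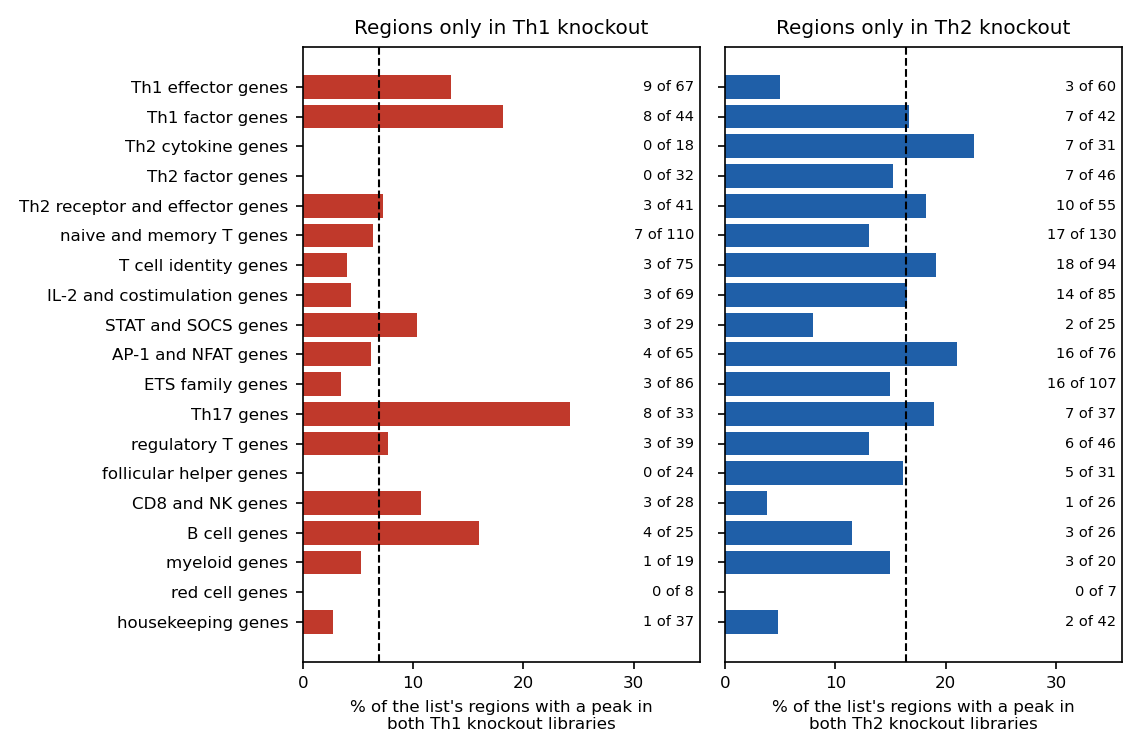
Share of each gene list's regions called only in Th1 knockout (left, of regions with a peak in both Th1 knockout libraries) and only in Th2 knockout (right, of regions with a peak in both Th2 knockout libraries), in percent, with the counts. Dashed lines are the shares over all regions, 6.89% and 16.4%. The Th2 cytokine, Th2 factor, follicular helper and red cell lists hold no Th1-only region.

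Of the lists of genes used by both fates, those of T cell identity, IL-2 and costimulation, naive and memory, and AP-1 and NFAT genes had more Th2-only than Th1-only regions, as the whole genome did, and the STAT and SOCS list did not. At equal list lengths the T cell identity genes had 5 Th1-only and 14 Th2-only regions and the IL-2 and costimulation genes 5 and 10, whereas the AP-1 and NFAT genes had 9 and 9 the naive and memory genes 13 and 10, and the STAT and SOCS genes 4 and 0. T cell identity genes (the T cell receptor complex and its kinases) had, in the full lists, 3 Th1-only regions of 75 (4.00%) and 18 Th2-only regions of 94 (19.1%). Lcp2, a scaffold of T cell receptor signalling, had 3 Th2-only regions, Cd4 had 2, and Cd3d and Cd3e shared 1 that was centred at -0.604 kb from the Cd3d start. Among the IL-2 and costimulation genes 3 of 69 regions were Th1-only (4.35%) and 14 of 85 were Th2-only (16.5%). Cd28, the main costimulatory receptor, had 7 and 8 regions in Th1 knockout against 12 and 14 in Th2 knockout cells, 4 of them Th2-only. In the wild type Cd28 had 8 and 6 regions in Th1 against 9 and 10 in Th2 cells. None of its 4 Th2-only regions had the same call in the wild type. Tigit, an inhibitory receptor, had 2 and 5 regions in Th1 knockout against 10 and 8 in Th2 knockout cells. It had 3 Th2-only regions, of which the one inside the gene stood at percentiles 76.3 and 73.0. Il2ra, the high-affinity chain of the IL-2 receptor, had 2 of either kind, of which the stronger Th1-only region lay inside the gene at percentiles 56.7 and 80.6 (chromosome 2, 11691026 to 11691576). The other Th1-only region and both Th2-only regions lay before the gene. At naive and memory genes 7 of 110 regions were Th1-only (6.36%) and 17 of 130 Th2-only (13.1%), with 5 Th2-only regions at Bach2, a repressor that keeps T cells from effector fates. AP-1 and NFAT genes, the factors of T cell activation, had 4 of 65 (6.15%) and 16 of 76 (21.1%). STAT and SOCS genes had 3 of 29 (10.3%) and 2 of 25 (8%).

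Ets1 itself, whose super-enhancer all 4 libraries lack, had 11 and 13 regions in Th1 knockout against 17 and 17 in Th2 knockout cells within its body and 20 kb on each side. In the wild type the counts were 12 and 11 in Th1 against 17 and 17 in Th2 cells. No region of Ets1 was Th1-only and 2 were Th2-only, at chromosome 9, 32731861 to 32732329 (percentiles 66.1 and 61.7) and 32759596 to 32760082 (percentiles 49.1 and 30.5). The first had a peak in both Th2 wild-type libraries and no Th1 wild-type library, the second in all 4 wild-type libraries. Fli1, the neighbouring ETS gene, had 1 Th1-only and 2 Th2-only regions, and Etv6, an ETS repressor, 2 and 4. Over the 13 ETS family genes 3 of 86 regions were Th1-only (3.49%) and 16 of 107 were Th2-only (15.0%), and at equal list lengths the counts were 5 and 12.

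Genes of other helper types were open too and differed in both directions. Il23r, the receptor that maintains Th17 cells and neighbour of Il12rb2, had 9 and 10 regions in Th1 knockout against 6 and 6 in Th2 knockout cells. Its first Th1-only region (chromosome 6, 67475360 to 67475966, inside the gene) stood at percentiles 87.7 and 87.6 and had a peak in both Th1 wild-type libraries and no Th2 wild-type library. Rora, a factor of Th17 and innate lymphoid cells, had 5 Th1-only and 4 Th2-only regions, all inside its long body. Il17a, the Th17 cytokine, had a Th2-only region 23.7 kb after its start at percentiles 72.6 and 85.8, with the same pattern in the wild type. The Th17 list held 8 Th1-only regions of 33 (24.2%) and 7 Th2-only regions of 37 (18.9%), but the Th1 count was below the Th2 count without the first (8 against 12) or the second Th2 knockout library (9 against 16). Follicular helper genes had 0 of 24 and 5 of 31 (16.1%), and regulatory T genes 3 of 39 (7.69%) and 6 of 46 (13.0%), with 4 Th2-only regions at Nrp1. At equal list lengths the regulatory T genes had 3 Th1-only and 2 Th2-only regions.

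Markers of cells that a culture of CD4+ T cells could hold besides were read the same way. CD8 and NK genes had 3 Th1-only regions of 28 (10.7%) and 1 Th2-only region of 26 (3.85%), B cell genes 4 of 25 (16.0%) and 3 of 26 (11.5%), myeloid genes 1 of 19 (5.26%) and 3 of 20 (15.0%), and red cell genes 0 of 8 and 0 of 7. At equal list lengths the Th1-only and Th2-only counts were 7 and 0 for CD8 and NK genes, 5 and 0 for B cell genes, 2 and 2 for myeloid genes and 2 and 0 for red cell genes. Over all regions these counts were 3689 and 4320 at equal list lengths, and whether the lists depart from them was not tested. The lists' summed regions were 31 and 38 in Th1 knockout against 33 and 33 in Th2 knockout cells for CD8 and NK genes, 37 and 33 against 39 and 28 for B cell genes, and 29 and 21 against 27 and 24 for myeloid genes. Ms4a1, Lyz2, Mpo, Ncr1 and Gzmc had no region in any of the 4 knockout lists, and Cd8a had 1 and 0 in Th1 knockout against 2 and 1 in Th2 knockout cells. The part of other cells in the differences was not tested. In bulk libraries a peak present in fewer cells and a peak weaker in every cell cannot be told apart. The 11 housekeeping genes had 1 Th1-only region of 37 (2.70%) and 2 Th2-only regions of 42 (4.76%).

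In the full lists the Th1-only and Th2-only regions differed in number, while their widths, promoter shares, distances to genes and score percentiles were similar. The 46006 and 44372 peaks of the Th1 knockout lists (mean 45189 ± 1155, SD, n = 2) and the 56357 and 52561 peaks of the Th2 knockout lists (54459 ± 2684, SD, n = 2) did not overlap in number. The full lists gave 2382 Th1-only and 7034 Th2-only regions, against 3689 and 4320 at equal list lengths. Median widths were 398 bp for Th1-only and 400 bp for Th2-only regions, against 693 bp for the 29201 regions present in all 4 lists. Only 3.51% of Th1-only and 2.64% of Th2-only regions lay at a promoter, against 28.4% of common regions, and their median distances to the nearest gene start were 24.2 kb and 21.7 kb, against 11.4 kb. Their median score percentiles were 31.2 and 30.2 in the Th1 knockout lists and 35.6 and 32.7 in the Th2 knockout lists, against 64.9 to 70.8 for common regions.

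Of single genes, Inpp4b, a lipid phosphatase gene, had 12 Th2-only regions, with 46 and 39 regions in Th1 knockout against 67 and 62 in Th2 knockout cells. Adamtsl3 had 4 and 3 against 16 and 16, Eml6 had 5 and 7 against 17 and 19, and Enox1 had 4 and 1 against 17 and 16. At equal list lengths Inpp4b had 3 Th1-only and 8 Th2-only regions. These genes were chosen for their Th2-only regions, so the knockout counts are a description. In the wild type, which the choice did not use, Inpp4b had 40 and 27 regions in Th1 against 60 and 55 in Th2 cells. Adamtsl3 had 4 and 3 in Th1 wild type against 15 and 15 in Th2 wild type, Eml6 had 5 and 5 against 19 and 14, and Enox1 had 1 and 1 against 12 and 14. The genes with most Th1-only regions had fewer of them: Acoxl, Pde4d and Rora had 5 each. Pde4d also had 8 Th2-only regions, with 36 and 31 regions in Th1 knockout against 40 and 39 in Th2 knockout cells, and Rora had 4 Th2-only regions. Acoxl, which lies beside the cell death gene Bcl2l11, had 16 and 15 regions in Th1 knockout against 11 and 10 in Th2 knockout cells, but 13 and 9 in Th1 wild type against 10 and 12 in Th2 wild type. In all, 2100 protein-coding genes had a Th1-only region within 20 kb, 5406 had a Th2-only region and 831 had both, of 17317 with any region.

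**Figure D3:**
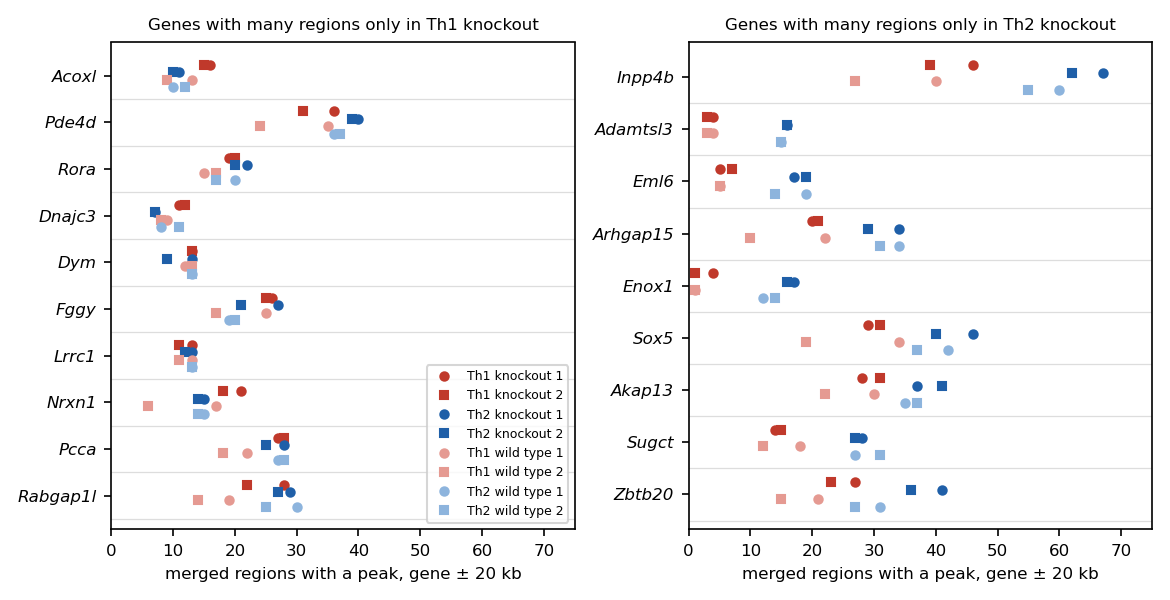
Number of merged regions with a peak within the gene and 20 kb on each side, per library, for the 10 protein-coding genes with most Th1-only regions (left) and 9 of the 10 with most Th2-only regions (right). Circles are replicate 1 and squares replicate 2; at Inpp4b the Th1 knockout libraries have 46 and 39 and the Th2 knockout libraries 67 and 62.

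The strongest Th2-only regions were not at cytokine genes. Among the 10 with the highest rank in the weaker list were regions inside Cdc42bpa, a cytoskeletal kinase gene (chromosome 1, 179986142 to 179986674), at percentiles 98.0 and 98.1, inside Anxa9 (an annexin gene) at 96.7 and 97.5 (chromosome 3, 95297976 to 95298529), and 8.48 kb beyond Btla, an inhibitory receptor gene, at 94.3 and 97.4 (chromosome 16, 45261379 to 45261831). All 3 had a peak in both Th2 wild-type libraries, and those at Cdc42bpa and Btla also in 1 Th1 wild-type library. The 3 regions were chosen after their values were seen.

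Regions open in all 4 knockout lists were compared by the rank of their score (the −log10 q-value) among these 29201 regions, put on a normal scale and fitted with limma. No region passed an adjusted p of 0.05 in either direction (0% called each way), with the lowest limma adjusted p at 0.102. With the spread taken from all 4 polarized groups over the 23112 regions open in all 8 lists, an alternative chosen after seeing the data, limma called 23 regions higher in Th1 and 30 higher in Th2 knockout. At an unadjusted p under 0.05 there were 4440 regions (15.2%), 1999 ranked higher in Th1 knockout and 2441 ranked higher in Th2 knockout. Values are therefore given as descriptions. Both Th1 knockout ranks lay above both Th2 knockout ranks at 7341 common regions, a background of 25.1%, and both Th2 ranks above both Th1 ranks at 6578, a background of 22.5%. The replicates correlated at r = 0.750 within Th1 and 0.790 within Th2 knockout over these regions, and libraries of different fates at 0.621 to 0.650.

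Among Th1 genes the common regions ranked higher in Th1 knockout more often than the reverse. Irf1, a factor that interferon gamma induces, had 2 common regions, and in both the Th1 ranks lay above the Th2 ranks, with a median difference of 35.2 points (percentile points, Th1 minus Th2). Over the Th1 factor list 17 of 33 common regions had both Th1 ranks above (51.5%) and 7 the reverse (21.2%), with a median difference of 8.96 points against 0.894 over all common regions. For Th1 effector genes these were 17 of 48 (35.4%) and 8 of 48 (16.7%), with a median of 5.74 points. Within this list the promoter region of Il12rb2, the IL-12 receptor chain that sets Th1 responsiveness (chromosome 6, 67375515 to 67376502), stood at ranks 83.0 and 64.5 in Th1 knockout against 13.2 and 8.73 in Th2 knockout cells. Its difference was 1.90 ± 0.40 (SE) on the normal scale, with a limma adjusted p of 0.123. Yet 2 regions inside the same gene ranked higher in Th2 knockout cells by over 25 points, one of them at 20.7 and 21.0 in Th1 knockout against 58.1 and 79.0 in Th2 knockout (67291978 to 67292540). CD8 and NK genes had 9 of 21 common regions with both Th1 ranks above (42.9%) and 2 the reverse (9.52%).

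Of the Th2 lists, the receptor and effector genes had more common regions with both Th2 ranks above, whereas the cytokine and factor lists lay near the background. Th2 receptor and effector genes had 5 of 38 common regions with both Th1 ranks above (13.2%) and 13 with both Th2 ranks above (34.2%), at a median of -7.54 points. Of these, 6 of the 9 common regions of Il4ra and 2 of the 4 of Ccr8, a chemokine receptor of Th2 cells, had both Th2 ranks above. Of the common regions of the whole list with ranks at least 25 points apart, 2 were higher in Th1 and 1 in Th2 knockout. A region outside Il1rl1 (chromosome 1, 40386028 to 40386643) stood at 65.9 and 88.5 in Th1 knockout against 2.18 and 15.1 in Th2 knockout cells. The other, outside Il4ra, stood at 74.6 and 69.4 against 41.4 and 31.2. The cytokine list had 3 of 16 and 4 of 16, at a median of -6.62 points, and the Th2 factor list 5 of 28 (17.9%) and 6 of 28 (21.4%), at a median of -3.39 points.

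The region that differed most in rank lay inside Il7r, the receptor that keeps naive and memory T cells alive. It stood at ranks 6.69 and 4.64 in Th1 knockout against 96.4 and 98.4 in Th2 knockout cells (chromosome 15, 9520339 to 9520874), a difference of -3.56 ± 0.38 (SE) and a limma adjusted p of 0.102. A region inside Samsn1, a signalling adaptor gene of lymphocytes, stood at 5.84 and 1.96 in Th1 knockout against 94.3 and 94.7 in Th2 knockout cells. A region 40.6 kb before Cd44, the adhesion receptor of activated T cells, stood at 9.10 and 0.0462 against 78.0 and 80.1. It overlapped the promoter window of a RefSeq gene other than Cd44. In the Th1 direction the largest difference was inside Mitf, a transcription factor gene, with ranks 89.3 and 94.3 in Th1 knockout against 3.69 and 6.93 in Th2 knockout cells. A region inside Il23r stood at 69.6 and 76.8 against 7.51 and 5.10 (chromosome 6, 67482988 to 67483679). At ETS genes a region inside Etv6 ranked 0.361 and 0.909 in Th1 knockout against 48.7 and 79.1 in Th2 knockout cells, and another in the same gene 90.5 and 92 against 53.6 and 54.9. All of these were chosen after their values were seen, for a gap of at least 25 points or for their size. None passed the adjusted threshold in the fit to the 4 knockout libraries without a replicate block. The fit with such a block is given among the alternatives below.

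**Figure D4:**
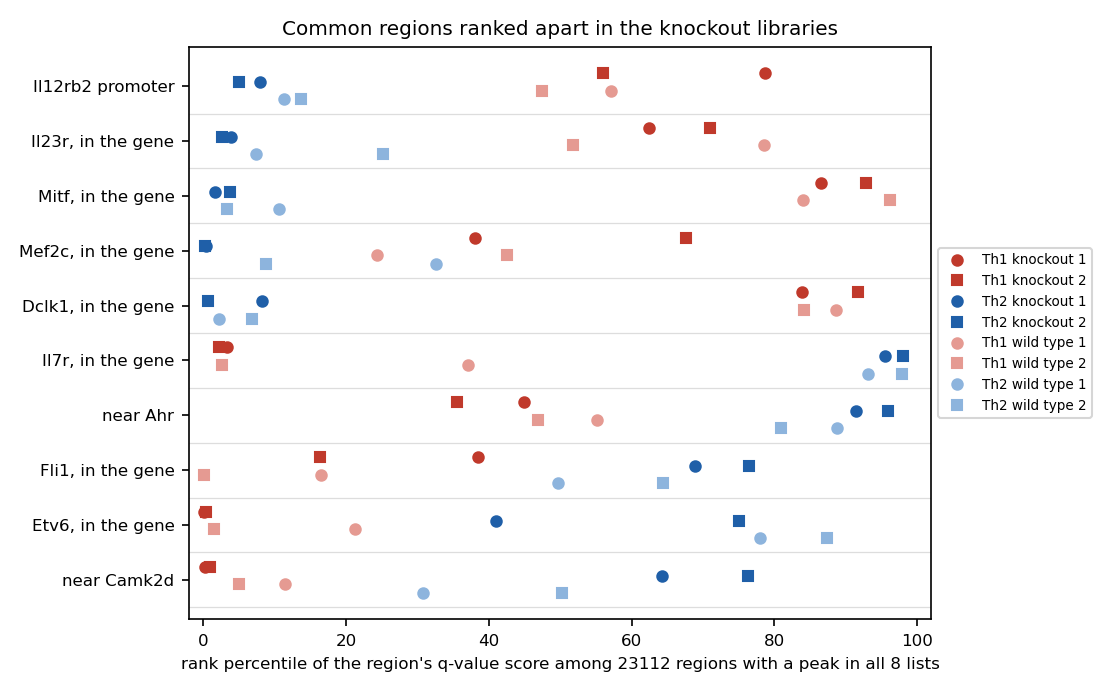
Rank percentile of 10 common regions among the regions with a peak in all 8 polarized lists, per library, with circles for replicate 1 and squares for replicate 2. At Il12rb2, Il23r, Mitf and Dclk1 all 4 Th1 libraries, knockout and wild type, lie above all 4 Th2 libraries, and at Il7r all 4 lie below.

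The wild-type libraries had no part in choosing these regions. More Th1 than Th2 wild-type libraries had a peak at 47.6% of the Th1-only regions, fewer at 12.3% and as many at 40.1%. Of the Th2-only regions, 72.6% had a peak in more Th2 than Th1 wild-type libraries, 4.07% in fewer and 23.3% in as many. Th1-only regions of the knockout had a peak in 57.1% and 42.8% of cases in the 2 Th1 wild-type libraries and in 23.4% and 22.5% in the 2 Th2 wild-type libraries. Th2-only regions had one in 23.3% and 10.8% in Th1 wild type and in 71.6% and 69.4% in Th2 wild type. By the full rule, 492 of 2382 Th1-only regions were Th1-only in the wild type as well (20.7%), 47 were Th2-only (1.97%) and 640 had no wild-type peak. Of the 7034 Th2-only regions 2729 were Th2-only in the wild type (38.8%), 30 were Th1-only (0.427%) and 911 had no wild-type peak. Set against the wild type's own calls on these regions, the shared ones were 33.1% of 1487 Th1-only and 35.2% of 7755 Th2-only calls. The second Th1 wild-type list was the shortest of the 8, with 34746 peaks, and without it the share of Th1-only regions with the same call was 33.8%.

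**Figure D5:**
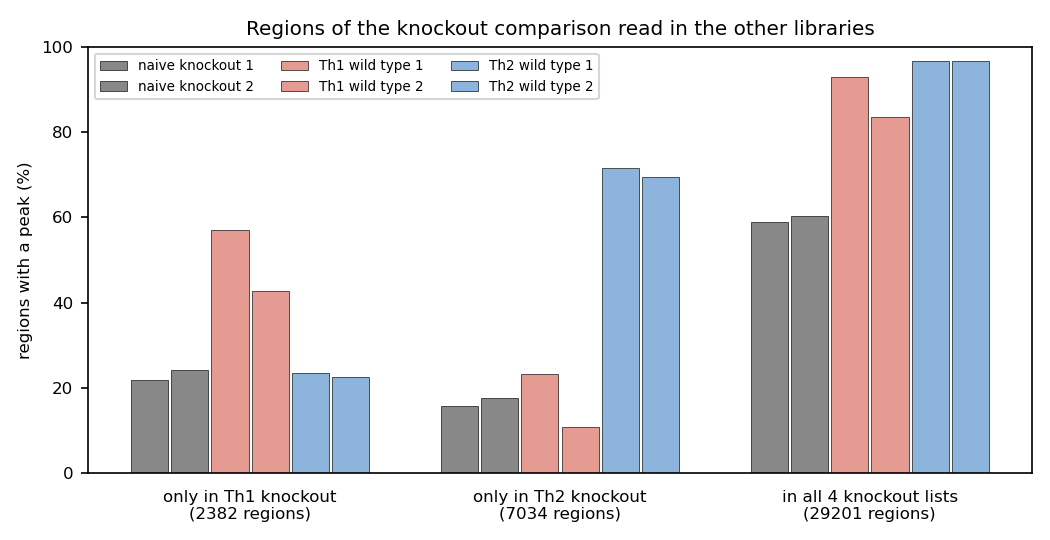
Percent of Th1-only, Th2-only and common regions of the knockout comparison that had a peak in each naive knockout, Th1 wild-type and Th2 wild-type library (paired bars are replicates 1 and 2). Th2-only regions had a peak in 71.6% and 69.4% in the Th2 wild-type libraries against 23.3% and 10.8% in the Th1 wild-type libraries.

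Before polarization, in naive knockout cells, 21.9% and 24.1% of Th1-only, 15.8% and 17.6% of Th2-only and 59% and 60.3% of common regions had a peak in the 2 libraries, whose spread is technical. Among common regions with ranks at least 25 points apart there were 864 higher in Th1 knockout (2.96% of all common regions) and 1186 higher in Th2 knockout (4.06%). Of the 718 such Th1 regions with a peak in all 8 lists, 58.5% had both Th1 wild-type ranks above both Th2 wild-type ranks and 4.18% the reverse. Of the 688 such Th2 regions, 66.0% had both Th2 wild-type ranks above and 2.91% the reverse, where all 23112 regions had 25.7% with Th1 above and 22.3% with Th2 above. Whether the difference between Th1 and Th2 depends on the deletion was tested over these 23112 regions with a limma interaction of fate and genotype. No region passed an adjusted p of 0.05 (0% called, lowest 0.818), and 1341 had an unadjusted p under 0.05 (5.80%). A p that misses the threshold does not show that the fates differed alike in both genotypes.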

How the data were processed

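Peaks had been called per library with MACS2 after alignment with BWA to GRCm38 and use of Picard, per the submitters' processing notes; their versions and settings were not stated in the material used. The deposited lists have 9 columns: among them a score that is the −log10 q-value multiplied by 10 and truncated, the fold enrichment over local background (a ratio), and −log10 p and −log10 q, all made by the authors within each library. The lists hold no read counts, so sequencing depth is unknown, and no counting interval can be given. The caller's score grows with depth, so scores were compared only as ranks within a list.

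Overlapping peaks of the 4 knockout lists on chromosomes 1 to 19 and X were merged with Python 3.11.15, numpy 2.4.6, pandas 2.3.3 and scipy 1.17.1. Presence of a peak needs 1 bp of overlap. For regions in every list of a fit, the within-list rank was turned into normal scores and fitted with limma 3.58.1 in R 4.3.3, with Benjamini-Hochberg adjustment over all regions and a threshold of 0.05. The procedure was first tested on simulated data. Libraries were grouped by source name. The replicate numbers of the titles did not establish pairs, so no block was used. Genes, promoters and names come from RefSeq tables of GRCm38.p6, in which all 209 gene entries of the 19 lists matched; promoter windows of chromosome 18 were not used. Figures used matplotlib 3.10.9.

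Members, lists and tests were chosen with earlier results of these data known. Genes named were Ifng, Tbx21, Il12rb2, Gata3, Il4, Il5, Il13, Il4ra, Ets1 and Fli1, up to 4 genes per list with most Th1-only or Th2-only regions, and the 10 genes with most of either kind. Since no rank difference passed the threshold, that part of the rule named none, and other genes were named after their values were seen. Alternatives were equal list lengths, −log10 q of at least 2, peaks covering at least 0.5 of a region, a 5 kb window, other ranks, a replicate block and each library left out. Some genes that the rule names are not reported here.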

Additional observations from a re-analysis of the deposited data

Results flagged for a closer look

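A small number of regions had opposite calls in the genotypes, with every Th1 and Th2 library of the knockout differing one way and every wild-type library the other; the difference was not tested. Over all 74246 merged regions, 7755 were Th2-only and 1487 Th1-only by the wild-type lists. Of the 2382 regions Th1-only in knockout, 47 were Th2-only in wild type (1.97%). Examples are a region 14.7 kb from Socs1, an inhibitor of cytokine signalling, at percentiles 10.5 and 70.8 of the Th1 knockout lists, and one 4.94 kb from Itgam at 30.0 and 27.7. Of the 7034 regions Th2-only in knockout, 30 were Th1-only in wild type (0.427%). Examples are a region inside Prkcq, a kinase of T cell receptor signalling, at percentiles 9.40 and 37.3 of the Th2 knockout lists, and one 9.62 kb from Tgfbr2, a TGF-beta receptor gene, at 15.3 and 26.8. The genes were chosen after their values were seen.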

How the results depend on the processing

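At equal list lengths the Th1-only and Th2-only counts moved to 3689 and 4320. With 1 knockout library left out at a time they ranged from 3546 to 6804 and from 10173 to 14801, since a call then needs fewer libraries to concur. The share of Th1-only regions with the same wild-type call moved to 17.4% where peaks had to cover at least 0.5 of a region, and the share of Th2-only regions to 37.4% there and to 40.1% with the stricter q-value threshold. Leaving out 1 wild-type library, an alternative chosen after seeing the data, gave 25.1% to 33.8% and 41.3% to 50.3%.

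The limma rank comparison called 0 regions each way under every alternative except 2. With the replicate block it called 37 regions higher in Th1 and 70 higher in Th2 knockout. With the spread taken from all 4 polarized groups, also chosen after seeing the data, it called 23 and 30. The cause of these calls was not tested. The lowest limma adjusted p was 0.0318 with that spread, 0.0389 with the block and 0.0741 to 0.381 in the other alternatives. Deviations of the same-numbered libraries correlated at 0.0138 over regions, and 2 pairs cannot show pairing. The interaction of fate and genotype called 0 regions in every alternative run, the block included. Of 18 lists with more of one kind of region, 13 to 17 kept that kind in each alternative, 13 of them at equal list lengths. Red cell genes had no region of either kind in the full lists. Read depth is unknown, so a missing peak says only that none was called.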
